A study of Homo sapiens with 9 samples.

Results

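The IFIT and IFITM genes are 2 families of antiviral effectors. The 7 members described here, IFIT1, IFIT2, IFIT3, IFIT5, IFITM1, IFITM2 and IFITM3, were chosen by name, and each was listed once among the 23284 gene symbols of every RNA-Seq library. Libraries were made from HT-29 cells, an established human colon cancer line grown as monolayers. There were 3 separate cultures in each of 3 groups: control cells given the vehicle DMSO alone (0 µM), cells given 5 µM 5-Aza-deoxycytidine (5-Aza), and cells given 10 µM 5-Aza, all kept for 5 days. 5-Aza is a cytidine analog that is built into DNA and traps DNA methyltransferases, so that methylation is lost as cells divide.

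Both families are switched on by interferon. Interferon binding to its receptors activates a complex that holds STAT2 and IRF9 and binds a short promoter motif, the interferon-stimulated response element. IFIT proteins sit in the cytoplasm and bind foreign RNA: IFIT1 holds capped RNA that lacks the cell's own cap methylation, IFIT3 and IFIT2 form complexes with it, and IFIT5 binds uncapped triphosphate RNA. IFITM proteins sit in membranes and hinder the fusion of enveloped viruses, IFITM1 mainly at the cell surface and IFITM2 and IFITM3 mainly in endosomes. In epithelia such as the colon, both families form part of the defence that a cell mounts on its own.

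The members lie in 2 clusters. In GRCh37, the build to which the authors aligned the reads (hg19), the IFIT genes are on the plus strand of chromosome 10. IFIT2 spans chr10:91043451-91069028, IFIT3 chr10:91087064-91137230, IFIT1 chr10:91152303-91166244 and IFIT5 chr10:91174325-91181362. The IFITM genes are on chromosome 11, with IFITM2 at chr11:303655-309397 and IFITM1 at chr11:310041-315272 on the plus strand, and IFITM3 at chr11:319676-329475 on the minus strand. These spans are whole genes, exons and introns together.

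Promoter sequences are shown because every member promoter at hand carries the core of the response element close to the start of transcription. RefSeq entries (GRCh38.p14, coordinates on that build) were matched for 5 of the 7 members, IFIT3 with 2 start sites, and not for IFIT2 and IFITM2. Each stretch is printed 5′ to 3′ on the strand of its gene, and capitals mark GAAANNGAAA or its reverse complement TTTCNNTTTC, searched on both strands from 250 bases before to 50 bases after the start.
IFIT3, chr10:89327827-89327996, plus strand: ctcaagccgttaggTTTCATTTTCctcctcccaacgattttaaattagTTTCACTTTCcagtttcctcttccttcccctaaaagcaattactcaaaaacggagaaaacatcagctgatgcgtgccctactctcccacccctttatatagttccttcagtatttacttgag
IFIT3, other start, chr10:89332359-89332528, plus strand: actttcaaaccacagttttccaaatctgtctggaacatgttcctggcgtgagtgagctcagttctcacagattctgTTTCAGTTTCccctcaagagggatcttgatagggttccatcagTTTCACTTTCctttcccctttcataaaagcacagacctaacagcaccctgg
IFIT1, chr10:89392453-89392622, plus strand: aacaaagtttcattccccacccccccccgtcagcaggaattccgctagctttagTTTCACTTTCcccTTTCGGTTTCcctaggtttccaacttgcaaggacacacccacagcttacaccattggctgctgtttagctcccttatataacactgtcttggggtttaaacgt
IFIT5, chr10:89414398-89414573, plus strand: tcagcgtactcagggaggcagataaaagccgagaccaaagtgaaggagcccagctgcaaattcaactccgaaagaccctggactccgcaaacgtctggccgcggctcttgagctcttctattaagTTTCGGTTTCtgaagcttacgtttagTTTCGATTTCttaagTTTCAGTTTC
IFITM1, chr11:313870-314043, plus strand: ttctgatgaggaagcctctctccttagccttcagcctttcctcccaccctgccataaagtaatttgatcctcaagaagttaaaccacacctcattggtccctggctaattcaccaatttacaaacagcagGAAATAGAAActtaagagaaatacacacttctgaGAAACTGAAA
IFITM3, chr11:320861-321030, minus strand: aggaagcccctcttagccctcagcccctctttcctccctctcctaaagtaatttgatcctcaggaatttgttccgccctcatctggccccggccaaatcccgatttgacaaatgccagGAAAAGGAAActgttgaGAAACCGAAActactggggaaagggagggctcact

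All 6 entries held at least 2 matches, and IFIT5 held 3. Of 35116 RefSeq promoter entries of the same 300 bases, 3.57% held the motif and 0.259% held at least 2 matches. The IFIT promoters carried it as TTTCNNTTTC on the strand of the gene and the IFITM1 and IFITM3 promoters as GAAANNGAAA. Counted from the start of transcription, the 2 matches in IFIT1 began at -116 and -103 and those in IFITM3 at -52 and -35. The matches nearest to the start in IFIT5 and IFITM1 began at -4 and -6 and ran across it. The whole windows of 300 bases held 16 CpG dinucleotides in IFIT5, 8 in IFITM3, 4 in IFIT1, 3 in IFITM1 and 5 and 1 at the IFIT3 starts, against a median of 14.0 over all entries. Neither methylation nor binding was part of the data analysed here, and a match of letters is a description only.

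All values below are gene-level FPKM as deposited, fragments scaled to the length of the transcript and the size of the library. Their sums are far above the usual range of this unit, so they were read as relative values, comparable between genes per length. Mean log2(FPKM + 1) was compared between groups with limma, with Benjamini-Hochberg adjustment over all genes tested, and a gene was called at an adjusted p of 0.05 or less together with more than a 2-fold difference. Intervals are 95% confidence intervals of the log2 difference. Every group enters 2 of the 3 comparisons, which are therefore not independent.

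The first comparison asked how the genes responded to 5 µM 5-Aza. All 7 members were higher in every 5 µM library than in every control library, and 5 of 7 were called up against 14.1% of the 20051 genes tested. None was called down, against 2.17% of the genes. A complete separation in the same direction was seen in 29.4% of the genes tested. IFITM1 rose most, 8.47-fold, IFIT3, IFITM3, IFIT1 and IFIT2 rose between 2.90-fold and 3.62-fold, and IFIT5 and IFITM2 were higher by less than the 2-fold limit. The median log2 difference of the 7 members was 1.72, against 0.14 over all genes tested. In RNA from whole cultures, more cells that express a gene and more RNA per cell cannot be told apart.

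IFIT1, the cap sensor, had the highest FPKM of the IFIT genes in all 3 groups. Its values were 713433, 612013 and 366421 FPKM in the control libraries and 1624970, 2108630 and 1668090 FPKM at 5 µM. The lowest treated library was thus well above the highest control library. IFIT1 rose by 1.72 on the log2 scale (SE 0.26, 1.10 to 2.34, limma adjusted p = 0.00307, n = 3 per group), from a mean of 563956 ± 178428 to 1800563 ± 267663 FPKM (SD).

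IFIT2 and IFIT3, the partners of IFIT1, rose by a like amount from lower levels. IFIT3 measured 196427, 187609 and 105111 FPKM in control cells and 530301, 653759 and 528188 FPKM at 5 µM, a rise of 1.85 (SE 0.25, limma adjusted p = 0.00208). IFIT2 measured 105689, 88457 and 54065 FPKM in control cells and 207032, 271932 and 218709 FPKM at 5 µM, a rise of 1.54 (SE 0.26, limma adjusted p = 0.00475). In both genes the groups did not overlap, and the third control replicate was the lowest library.

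IFIT5, the sensor of uncapped RNA, moved less. It measured 137263, 110596 and 81195 FPKM in control cells and 165879, 234962 and 199791 FPKM at 5 µM. The groups did not overlap, and the log2 difference of 0.89 (SE 0.22, 0.36 to 1.41, limma adjusted p = 0.0204) passed the limit on p but not the limit on fold. IFIT5 was called up without replicate 1 of the control group (1.06, adjusted p = 0.0109) or without replicate 1 of the 5 µM group (1.01, adjusted p = 0.0372). It missed the limit on p without replicate 2 (0.76, limma adjusted p = 0.0755) or replicate 3 (0.88, 0.0765) of the 5 µM group.

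Among the IFITM genes, IFITM1, which acts at the cell surface, changed most. Control libraries held 251730, 310889 and 120964 FPKM and the 5 µM libraries 1796590, 2120020 and 1509820 FPKM. The lowest treated value was several times the highest control value. The log2 difference was 3.08 (SE 0.35, 2.23 to 3.93, limma adjusted p = 0.00117), from a mean of 227861 ± 97186 to 1808810 ± 305283 FPKM (SD, n = 3 per group).

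IFITM3, an endosomal restriction factor, was the member with the highest mean in all 3 groups. It measured 814887, 759966 and 453779 FPKM in control cells and 2434260, 2570080 and 2100640 FPKM at 5 µM, a rise of 1.85 (SE 0.23, limma adjusted p = 0.00157). IFITM2, its endosomal relative, measured 705669, 677558 and 496283 FPKM in control cells and 940623, 889368 and 885144 FPKM at 5 µM. The IFITM2 groups did not overlap, yet the difference of 0.55 (SE 0.14, 0.21 to 0.89, limma adjusted p = 0.0240) stayed under the limit on fold. Without replicate 1, 2 or 3 of the 5 µM group, IFITM2 missed the limit on p as well (limma adjusted p = 0.0853, 0.0701 and 0.0752).

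The IFITM transcripts resemble one another. Of the 100-base windows of their canonical transcripts, 8.96% of IFITM1, 10.3% of IFITM2 and 18.2% of IFITM3 matched another IFITM gene with at most 2 mismatches. The handling of reads from such stretches was not given in the sources used here, so the split between these 3 genes is uncertain to that extent. No such window was found among the IFIT genes.

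**Figure D1:**
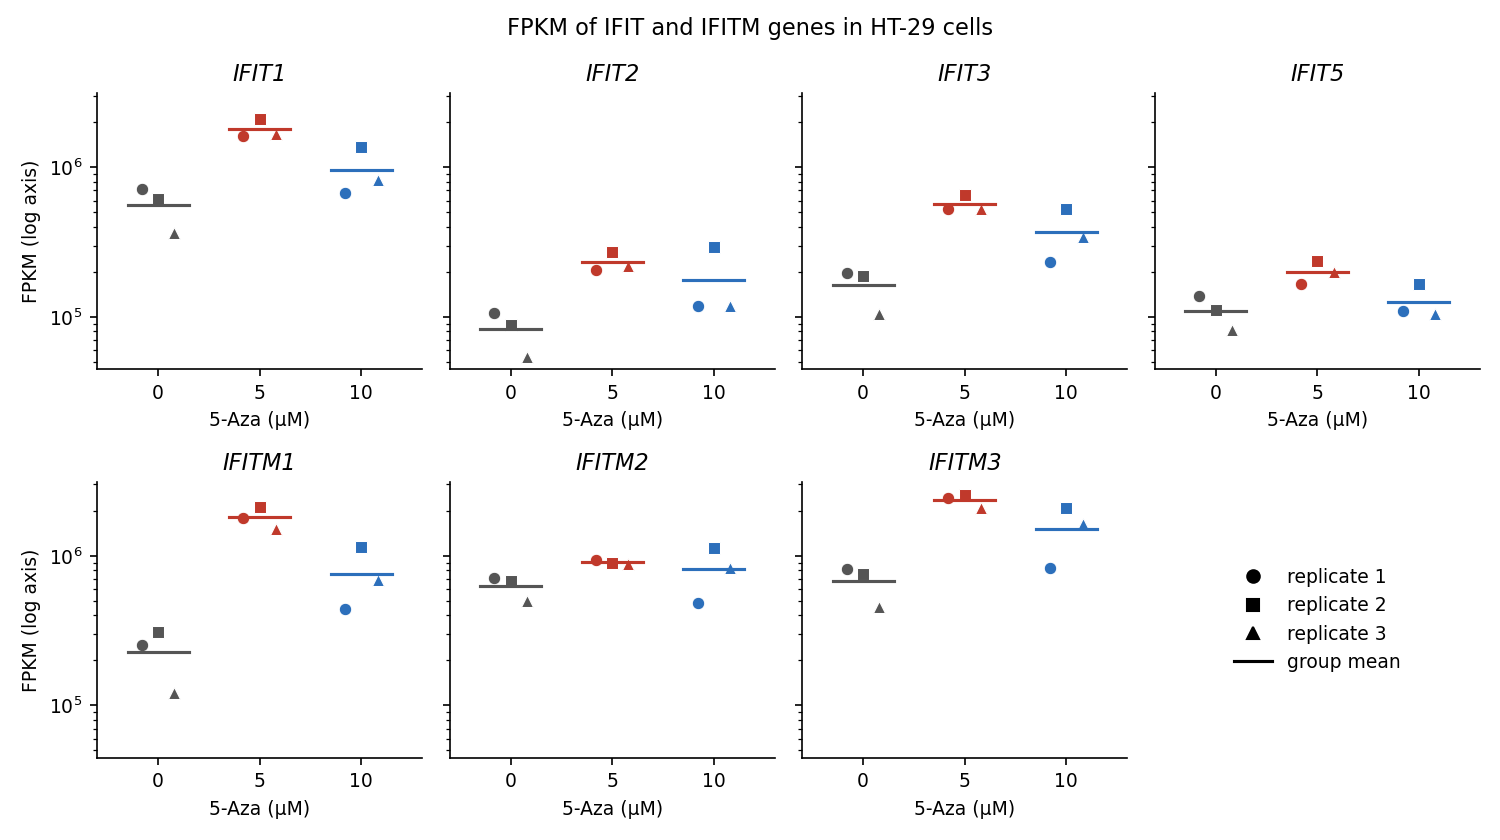
FPKM (log axis) of each member by 5-Aza concentration, 1 point per library with its replicate number as the shape, and a line at the group mean (n = 3). In all 7 panels the 5 µM points lie above the control points, and at 10 µM replicate 2 is the highest point.

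The second comparison asked what doubling the concentration did. All 7 mean log2 values were lower at 10 µM than at 5 µM, and none of the 7 was called down (4.82% of the 20085 genes tested were) or up (0.129%). By unadjusted limma p under 0.05, 4 were lower, namely IFIT1, IFIT3, IFIT5 and IFITM1. None of the 4 passed after adjustment, and the share of all genes at this looser limit is not given here. The median of the 7 differences was -0.71, against -0.31 over all genes tested. The scale of the libraries moved in the same direction: over genes above 0 in all 6 libraries the median difference was -0.24, and after scaling by median of ratios it was -0.04.

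IFITM1 measured 443143, 1149710 and 688942 FPKM at 10 µM, all below the 5 µM libraries. The difference was -1.34 (SE 0.34, -2.16 to -0.53, limma adjusted p = 0.0700), and -1.14 with an adjusted p of 0.0503 after scaling. IFIT1 measured 669541, 1372270 and 825480 FPKM, also below every 5 µM library, with a difference of -0.97 (SE 0.28, -1.64 to -0.30, limma adjusted p = 0.0988). Both genes thus missed the limit on p, with intervals that did not reach 0.

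IFIT5 and IFITM3 were the other members without overlap between 5 µM and 10 µM. IFIT5 measured 108788, 165697 and 103882 FPKM, its highest value just under the lowest 5 µM value, with a difference of -0.69 (-1.21 to -0.16, limma adjusted p = 0.122). IFITM3 measured 835463, 2081320 and 1637100 FPKM, again with its highest value just under the lowest 5 µM value, and a difference of -0.74 (-1.54 to 0.07, limma adjusted p = 0.231). A complete separation downward was found for these 4 members and for 25.3% of the genes tested.

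IFIT2, IFIT3 and IFITM2 overlapped between the concentrations. IFIT2 measured 117885, 295387 and 117670 FPKM at 10 µM, so that its replicate 2 was above all 5 µM libraries (difference -0.53, -1.38 to 0.32, limma adjusted p = 0.390). IFIT3 measured 231174, 529170 and 343324 FPKM (difference -0.71, -1.40 to -0.02, limma adjusted p = 0.192). IFITM2 measured 482221, 1134520 and 827939 FPKM (difference -0.24, -0.94 to 0.47, limma adjusted p = 0.622). The interval of IFIT3 ended just below 0, and those of IFIT2 and IFITM2 held 0.

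Replicates differed more at 10 µM and in control cells than at 5 µM. At 10 µM, replicate 2 was the highest of the 3 in 7 of 7 members, also after scaling, and the highest value was between 1.60 times (IFIT5) and 2.59 times (IFITM1) the lowest, against 1.42 to 2.57 times in control cells and 1.06 to 1.42 times at 5 µM. Replicate 1 was the lowest in 5 of 7 members. Without replicate 2 of the 10 µM group, 3 members were called down from 5 µM to 10 µM, against 9.35% of all genes tested. They were IFITM1 (-1.70, limma adjusted p = 0.00967), IFIT1 (-1.27, 0.00999) and IFIT3 (-1.01, 0.0223). No member was called down when any other library was left out. In control cells replicate 3 was the lowest in 7 of 7 members.

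The third comparison set 10 µM against control. All 7 mean log2 values were higher at 10 µM, 1 of 7 was called up (4.07% of the 18928 genes tested) and 0 were called down (3.40%). The called gene was IFITM1, with a difference of 1.74 (SE 0.44, 0.72 to 2.76, limma adjusted p = 0.0403). IFITM1 lost this call when any 1 of the 6 libraries was left out (differences 1.33 to 2.07, limma adjusted p between 0.0563 and 0.125).

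IFIT3 (1.15, 0.33 to 1.96, limma adjusted p = 0.0644), IFITM3 (1.11, 0.24 to 1.99, adjusted p = 0.0812) and IFIT2 (1.01, 0.06 to 1.95, adjusted p = 0.123) were likewise separated from the control libraries without overlap, as were 14.4% of all genes upward. IFIT1 (0.75, -0.03 to 1.53), IFITM2 (0.31, -0.43 to 1.05) and IFIT5 (0.20, -0.39 to 0.79) overlapped with control. Scale mattered here, since the median difference over genes above 0 in all 6 libraries was -0.23 as deposited and 0.01 after scaling by median of ratios. After that scaling 4 members were called up, against 5.94% of all genes tested, namely IFITM1 (1.98, limma adjusted p = 0.0143), IFIT3 (1.39, 0.0176), IFITM3 (1.36, 0.0258) and IFIT2 (1.25, 0.0398). IFIT1 then no longer overlapped with control, and 21.9% of all genes were separated upward. Its scaled difference of 0.99 (limma adjusted p = 0.0398) stayed just under the fold limit.

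**Figure D2:**
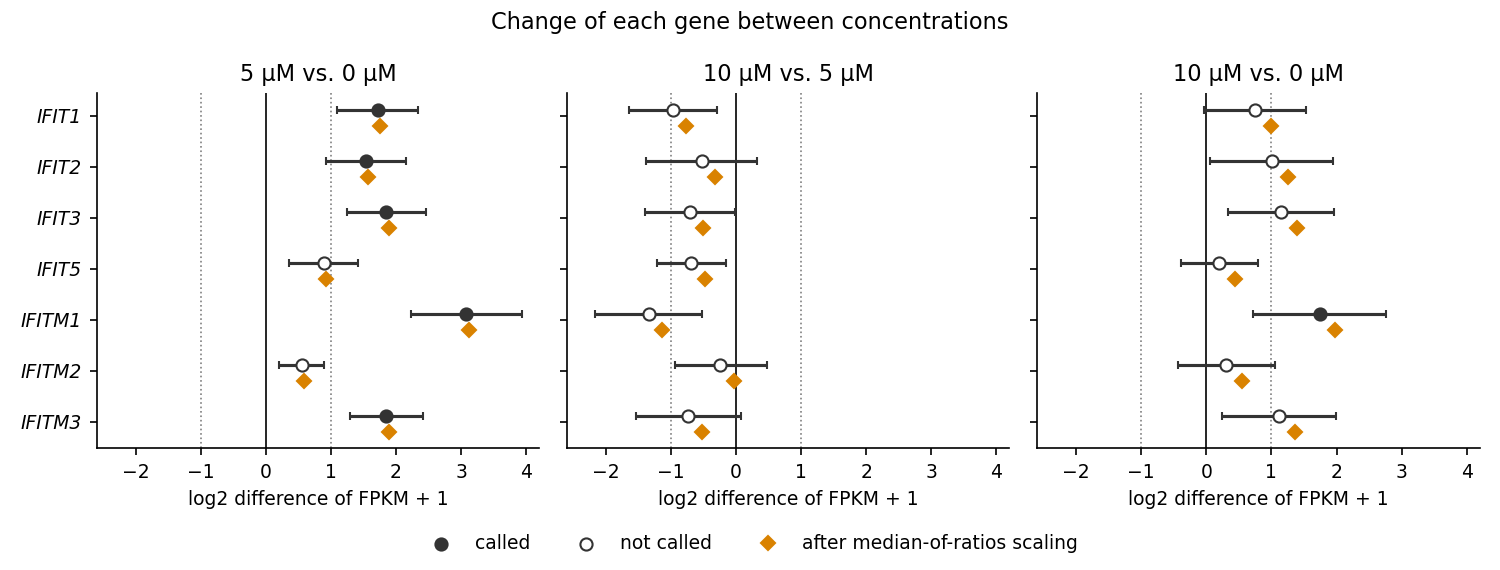
Difference in log2(FPKM + 1) of each member in the 3 comparisons, with the 95% confidence interval as a bar, a filled circle where called and an open circle where not, and a diamond for the value after median-of-ratios scaling. All 7 circles lie right of 0 at 5 µM vs. 0 µM and left of 0 at 10 µM vs. 5 µM, and IFITM1 is the farthest out in each panel.

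Ratios of 2 members within a library do not depend on the scale of that library. The ratio of IFITM1 to IFITM2 was 0.357, 0.459 and 0.244 in control cells, 1.91, 2.38 and 1.71 at 5 µM, and 0.919, 1.01 and 0.832 at 10 µM. Control cells thus held less IFITM1 than IFITM2 per length, cells at 5 µM held more, and the 3 groups did not overlap. The log2 ratio differed by 2.53 between 5 µM and control, by -1.11 between 10 µM and 5 µM and by 1.43 between 10 µM and control.

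IFITM3 kept the same order against IFITM2. Its ratio was 1.15, 1.12 and 0.914 in control cells, 2.59, 2.89 and 2.37 at 5 µM, and 1.73, 1.83 and 1.98 at 10 µM. Again no group overlapped with another. The ratios were chosen after seeing the data, with the least changed gene of a family against control as the denominator, so they are a description and no test is given.

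Within the IFIT family IFIT5 was the denominator, as the member with the smallest difference in both comparisons with control. The ratio of IFIT1 to IFIT5 was between 4.51 and 5.53 in control cells, 8.35 and 9.80 at 5 µM, and 6.15 and 8.28 at 10 µM, without overlap. IFIT3 to IFIT5 was between 1.29 and 1.70 in control cells, 2.64 and 3.20 at 5 µM and 2.12 and 3.30 at 10 µM, and IFIT2 to IFIT5 between 0.666 and 0.800, 1.09 and 1.25, and 1.08 and 1.78. For IFIT2 and IFIT3 the ratio was higher in every treated library than in every control library, while the 2 treated groups overlapped. IFIT1 to IFITM3, a ratio across the families, was between 0.805 and 0.875 in control cells, 0.668 and 0.820 at 5 µM and 0.504 and 0.801 at 10 µM.

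**Figure D3:**
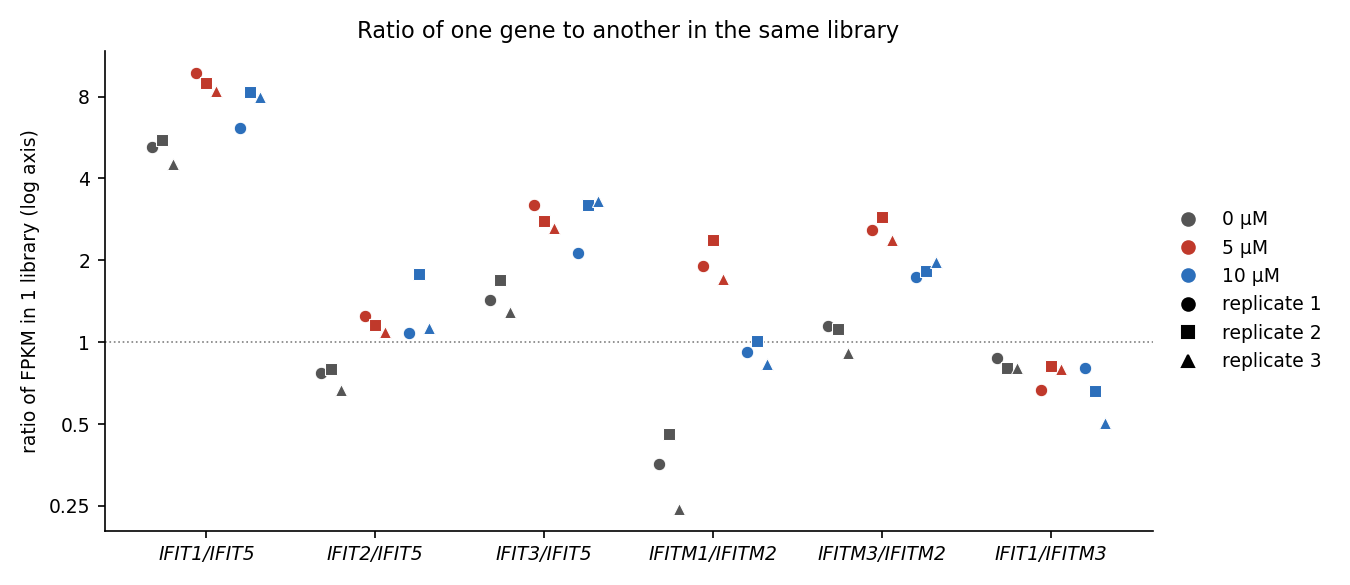
Ratio of the FPKM of one member to that of another in the same library (log axis), 1 point per library, colored by concentration and shaped by replicate. The IFITM1/IFITM2 points are all under 0.459 or at it in control cells, between 1.71 and 2.38 at 5 µM and between 0.832 and 1.01 at 10 µM.

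The order of the members by mean FPKM shifted with the concentration. In control cells it was IFITM3, IFITM2, IFIT1, IFITM1, IFIT3, IFIT5 and IFIT2, and only the neighbours IFIT1 and IFITM1 did not overlap. At 5 µM it was IFITM3, IFITM1, IFIT1, IFITM2, IFIT3, IFIT2 and IFIT5, with no overlap between IFIT1 and IFITM2, IFITM2 and IFIT3, and IFIT3 and IFIT2. At 10 µM it was IFITM3, IFIT1, IFITM2, IFITM1, IFIT3, IFIT2 and IFIT5, and all neighbours overlapped. IFITM1 therefore stood at place 4, then 2, then 4, and IFIT2 and IFIT5 held the last places in all 3 groups.

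Other interferon-stimulated effectors moved in the same direction as the members at 5 µM. Of 30 such genes, 27 were called up and 0 down, against 14.1% and 2.17% of all genes tested, with a median log2 difference of 1.47. HERC5, a ligase that attaches ISG15 to proteins, had the largest rise at 4.30 (SE 0.30, limma adjusted p = 2.98e-04), followed by RSAD2, the antiviral enzyme viperin (2.89, adjusted p = 7.65e-04), and MX2, a dynamin-like GTPase (2.50, adjusted p = 8.18e-04). MX1, its cytoplasmic relative (1.87), ISG15, a ubiquitin-like modifier (1.74), and IFI27 (1.46) rose as well. IFITM1 came between HERC5 and RSAD2, and IFIT5 and IFITM2 stood among LAMP3 (0.97), GBP1 (0.69) and PLSCR1 (0.45), the 3 effectors that were not called.

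Between 5 µM and 10 µM, 2 of the 30 effectors were called down, against 4.82% of all genes tested, and the median was -0.84. The 2 were LAMP3 (-1.14, limma adjusted p = 0.0214) and MX2 (-1.06, adjusted p = 0.0357). After median-of-ratios scaling both missed the limit on fold (-0.94 and -0.86), and 1 other effector, OAS3, was called down (-1.12, adjusted p = 0.0309). Without replicate 2 of the 10 µM group the count was 16, against 9.35% of all genes tested, and without any other library it was 0. MX1 (-0.86), ISG15 (-1.15) and IFI27 (-0.85) were not called. At 10 µM against control, 6 of 30 were called up and 0 down, against 4.07% and 3.40% of all genes tested. The 6 were led by HERC5 (2.91, limma adjusted p = 0.0146), XAF1 (2.15, adjusted p = 0.00377) and RSAD2 (1.75, adjusted p = 0.0313). After median-of-ratios scaling 12 were called up, against 5.94% of all genes tested, and with 1 library left out between 1 and 5. RSAD2 lost its call without any library but 10 µM replicate 2 (limma adjusted p between 0.0503 and 0.0919), and HERC5 without control replicate 2 (0.0510). MX1 (1.01), ISG15 (0.59) and IFI27 (0.60) were not called as deposited.

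**Figure D4:**
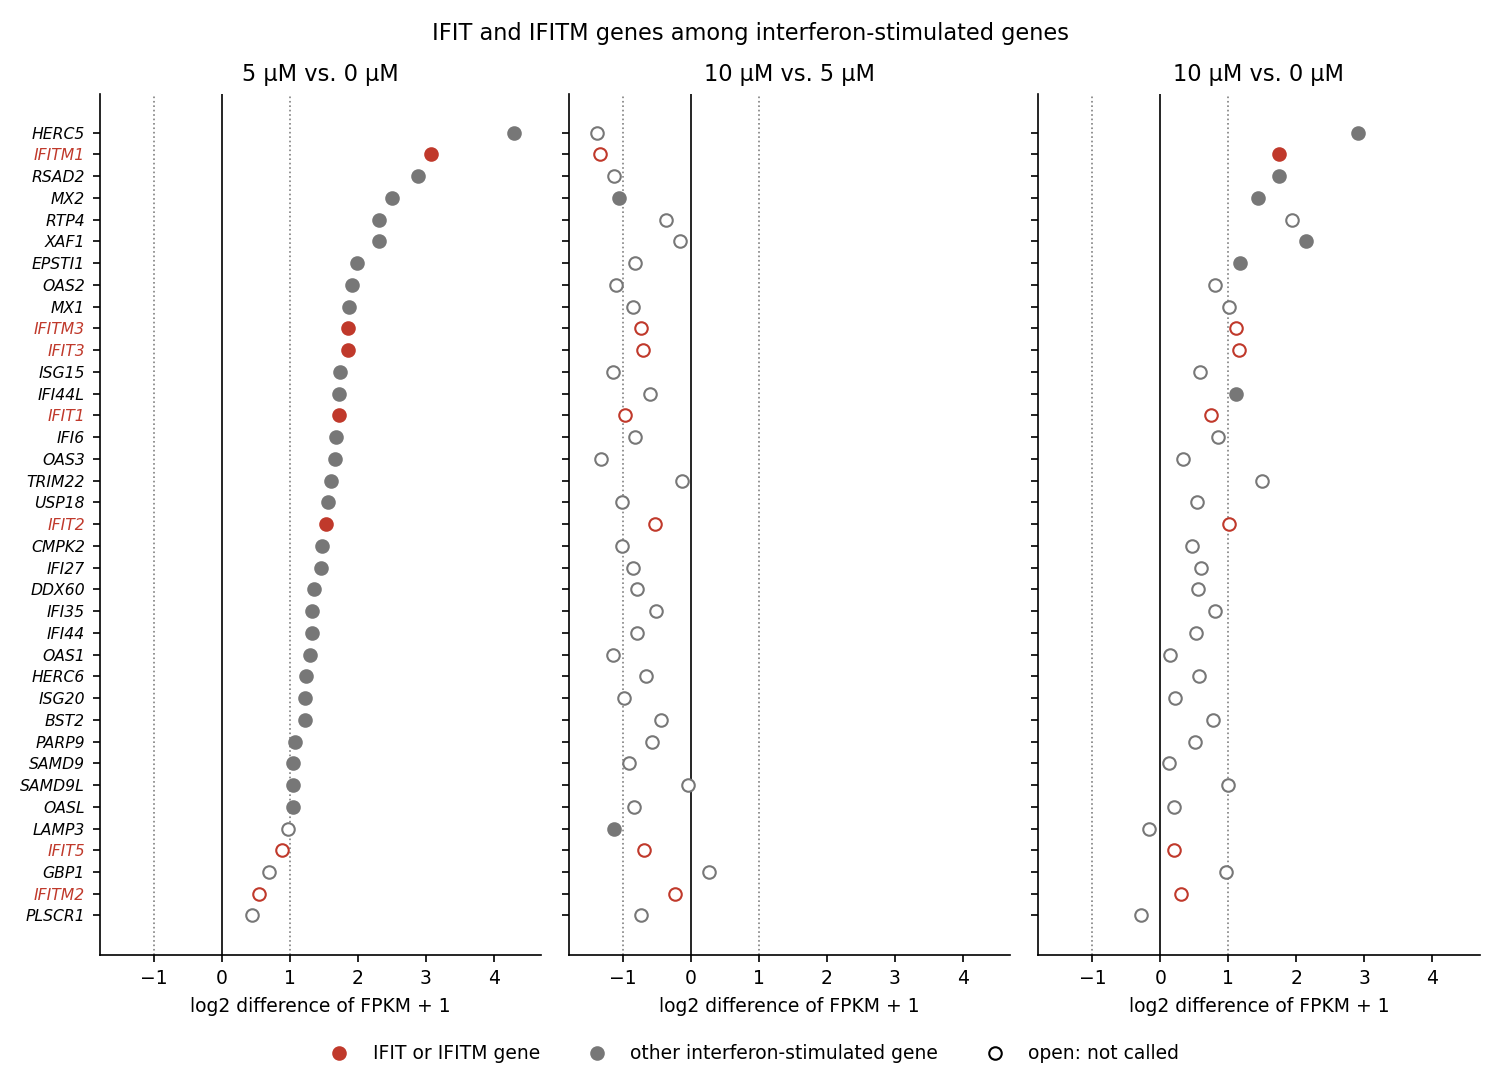
Difference in log2(FPKM + 1) of the 7 members (red) and 30 other interferon-stimulated effectors (grey) in the 3 comparisons, ordered by the 5 µM vs. 0 µM difference, filled where called and open where not. At 5 µM 32 of the 37 points are filled, with HERC5 and IFITM1 farthest out, and at 10 µM vs. 0 µM 7 of the 37 are filled.

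Upstream of the members, fewer genes passed. Of 12 interferon receptors and signal carriers, 3 were called up at 5 µM, against 14.1% of all genes tested. Among the 3 were STAT2 (1.24, limma adjusted p = 2.67e-04) and IL28RA, a receptor chain for type III interferon (1.21, adjusted p = 0.00630). IRF9, the DNA-binding partner of STAT2, differed by 0.28 (adjusted p = 0.0755). The median of the 12 was -0.06. None of them was called between 5 µM and 10 µM (STAT2 -0.71, IRF9 -0.21) or between 10 µM and control (STAT2 0.53, IRF9 0.06).

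Of 12 RNA sensors and adaptors, 1 was called up at 5 µM, against 14.1% of all genes tested, and the median was 0.46. The called gene was IFIH1, the sensor of long double-stranded RNA also known as MDA5 (1.20, limma adjusted p = 0.00995). IFIH1 differed by 0.94 without control replicate 3, under the limit on fold. IRF7, a transcription factor that drives interferon genes, differed by 0.59 (adjusted p = 0.0111) and stayed under the limit on fold. No gene of the list was called in the other 2 comparisons, where IRF7 differed by -0.33 and 0.26.

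Of 21 interferon genes, 14 reached 10 FPKM in at least 1 library of the 5 µM or control group and were tested. That limit is low on the scale of these values: 20051 genes passed it, against 20115 with no filter on low values. Called up at 5 µM were 2 of the 14, IFNB1 (limma adjusted p = 3.43e-04) and IL28B (adjusted p = 2.72e-04), a share close to the 14.1% of all genes. The interferon gene with the highest level was IFNE, with a mean of 163000 FPKM in control cells and 99500 FPKM at 5 µM, a difference of -0.70 (adjusted p = 0.00656) within the fold limit. IFNB1, the gene of interferon beta, was listed at 0 in all 3 control libraries, at 2529, 3194 and 3783 FPKM at 5 µM, and at 0, 2424 and 11443 FPKM at 10 µM. IL28B, a type III interferon gene with near-identical relatives that could share its reads, was listed at 0 in the control libraries, at 5817, 3935 and 6214 FPKM at 5 µM, and at 5505, 995 and 1175 FPKM at 10 µM. IL28B was also called up at 10 µM against control (adjusted p = 0.00756), and no interferon gene was called between 5 µM and 10 µM. The IFNB1 values at 5 µM correspond to an estimated 5.0, 6.0 and 8.0 fragments, far fewer than for any member.

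Over the 9 libraries the members varied together, with Pearson correlations of log2(FPKM + 1) between 0.74 (IFIT5 and IFITM2) and 0.99 (IFIT3 with IFITM1 and with IFITM3). The points share the treatment groups and the scale of each library. Among 15098 genes at 10 FPKM or more in all 9 libraries, those most like IFIT1 were HERC6 (0.996), OAS2 (0.992) and IFI30 (0.991), and those most like IFIT3 were IFI35 (0.996), UBE2L6 (0.993) and APOL1 (0.992). IFIT2 was most like PSMB9 (0.984), BATF2 (0.980) and HERC6 (0.970), and IFIT5 most like DDX58 (0.988) and IFIH1 (0.987).

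IFITM1 was most like EPSTI1 (0.994), APOL1 (0.993) and NFKB2 (0.992), and IFITM3 most like IFI35 (0.994), SP110 (0.991) and IFI6 (0.989). IFITM2 had the weakest such matches, LY6E (0.979), LOC728554 (0.977) and ADAM15 (0.964), and only 72 genes reached 0.9 with it. For the other members that number was between 186 (IFIT2) and 594 (IFITM1).

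The identity and depth of the libraries were checked. All 11 colon epithelial markers were present, with a summed level of 90264203 to 108557958 FPKM in control cells, 37692002 to 42350512 at 5 µM and 29613830 to 52075052 at 10 µM. At 5 µM, KRT8, KRT18 and KRT19, which make up most of that sum, were called down, CDX1 (2.14) and CEACAM5 (1.59) were called up, and the other 6 were not called. The 8 leukocyte markers summed to 38171 to 50358, 46061 to 61285 and 45070 to 54922 FPKM, mostly CD14 (-0.09 at 5 µM). Of these, ITGAM (755 to 10200 FPKM in the mean, adjusted p = 0.00193) and CD3E (listed at 0 in control, 804 FPKM in the mean at 5 µM) were called up at 5 µM, while CD3D was listed at 0 in all control and all 10 µM libraries. The 8 fibroblast markers summed to 23011 to 32355, 82825 to 89610 and 45354 to 52496 FPKM, with PDGFRA listed at 0 throughout, and the 5 endothelial markers to 5788 to 7547, 19918 to 27001 and 6965 to 8181 FPKM. At 5 µM 4 fibroblast and 4 endothelial markers were called up as well, against 14.1% of all genes tested. The summed epithelial level was thus lower and the small fibroblast and endothelial sums higher in every 5 µM library than in control, and their part in the members' differences was not tested. From the smallest steps of the FPKM values, and with an assumed mean fragment of 200 nt, a member rested on an estimated 151 (IFITM1) to 25420 fragments (IFIT1) in a library. The scale of this estimate was the median over 637 genes, of which 417 lay within 15% of it, so all fragment numbers are approximate.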

How the data were processed

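RNA from 9 HT-29 cultures was measured by paired-end RNA-Seq. The authors used FASTX-Toolkit to filter reads, TopHat to align them to hg19 and Cufflinks to obtain the gene FPKM values that were deposited. The annotation version is not given in the sources used here. FPKM are not counts, so a count test was not used. An exact 0 can be a failed estimate.

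The members and gene lists were chosen with earlier results of these data known. Entries with the same symbol were summed and values were used as log2(FPKM + 1). Genes whose largest value reached 10 FPKM in either group were fitted on the 6 libraries of each comparison with limma 3.58.1 (lmFit, eBayes with trend) in R 4.3.3. A call needed an adjusted p (Benjamini-Hochberg) no higher than 0.05 and a log2 difference beyond 1 in size. Named were all members, up to 3 called genes with the largest rise and the largest fall of each list, STAT2, IRF9, IRF7, ISG15, MX1 and IFI27, all cluster neighbours, and the 3 genes most correlated with each member; GBP1, PLSCR1, OAS3, IFNE and the cell type markers were added after their values were seen, and some results under this rule are not reported here. Within-library ratios, also added later, are given without a test. Other steps used Python 3.11.15, pandas 2.3.3, numpy 2.4.6 and matplotlib 3.10.9. The fit was tested on simulated data. Alternatives changed the pseudocount (0.1, 1000), filter, fold limit, samples in the fit, replicate block, scaling and repeated symbols, or left out 1 replicate.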

Additional observations from a re-analysis of the deposited data

How the results depend on the processing

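The 5 members called up at 5 µM vs. 0 µM stayed between 5 and 6 when 1 replicate was left out, and their number kept within 1.5 times under all 16 alternatives. Members called down at 10 µM vs. 5 µM numbered 0 as reported, 1 after scaling to the total, and 0 to 3 with 1 replicate left out. Members called up at 10 µM vs. 0 µM numbered 1 as reported, 0 with no filter on low values, 3 with all 9 samples in one fit, 4 after median-of-ratios scaling, 5 after scaling to the total, and 0 whichever replicate was left out. IFITM2 at 10 µM vs. 5 µM (-0.24) ranged from -0.52 to 0.10 with 1 replicate left out and turned positive without 10 µM replicate 1, and IFIT5 at 10 µM vs. 0 µM (0.20) ranged from -0.01 to 0.38 and turned negative without 10 µM replicate 2. The cause of these changes was not tested. Over all genes, calls at 5 µM vs. 0 µM (2818 up, 436 down) ranged from 2388 to 4263 up and 167 to 3553 down over the alternatives, those at 10 µM vs. 5 µM (26 up, 969 down) from 11 to 64 up and 176 to 1873 down, and those at 10 µM vs. 0 µM (771 up, 644 down) from 337 to 1362 up and 164 to 1837 down. Scaling to the total moved the split of calls at 10 µM vs. 0 µM to 1362 up and 164 down, and median-of-ratios scaling to 1125 up and 284 down.

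Replicate numbers are shared between groups, but same-numbered libraries did not deviate together (correlations -0.31 to 0.22 over 9 pairs), and 2 of 9 libraries correlated best with their own number. With the replicate block, members called were 5 up at 5 µM vs. 0 µM, 0 at 10 µM vs. 5 µM and 1 up at 10 µM vs. 0 µM (IFITM1, 1.74, limma adjusted p = 0.0321), so no member's call changed. Over all genes the block left 11 up and 407 down at 10 µM vs. 5 µM. Among other named genes the block removed the calls of SLC16A12 at 5 µM vs. 0 µM (limma adjusted p = 0.0816) and 10 µM vs. 0 µM (0.0733) and of MX2 at 10 µM vs. 5 µM (0.0578). Depth in fragments is known only by estimate, and limits IFNB1, IFIT1B and SLC16A12 far more than the members; IL28B had no estimate.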

Other observations

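The genes within and beside the IFIT cluster did not move as a block. IFIT1B, which lies between IFIT3 and IFIT1 at chr10:91137813-91144962 (GRCh37, plus strand), was listed at 0 in all control libraries, at 360, 1138 and 1516 FPKM at 5 µM and at 1023, 648 and 764 FPKM at 10 µM. It was called up in both treated groups against control (limma adjusted p = 0.00108 and 0.0106) and not between them (adjusted p = 0.947), on an estimated 2.0 to 8.9 fragments a library. Without 10 µM replicate 3 its adjusted p at 10 µM vs. 0 µM was 0.0512. SLC16A12, a creatine transporter gene, measured 346, 115 and 162 FPKM in control cells and 863, 908 and 1411 FPKM at 5 µM (limma adjusted p = 0.0287), and was listed at 0 in all 10 µM libraries. These values correspond to an estimated 1.0 to 2.0 fragments in control cells and 12 to 21 at 5 µM. It was called down at 10 µM against 5 µM (adjusted p = 0.00697) and against control (adjusted p = 0.0321). All 3 of its calls were lost when certain single libraries were left out, with adjusted p between 0.0507 and 0.177. PANK1, a pantothenate kinase gene, fell by 1.01 on the log2 scale at 10 µM vs. 0 µM (adjusted p = 0.0328), by 0.77 after median-of-ratios scaling and then not past the fold limit. It lost the call without any library but 10 µM replicate 2 (adjusted p between 0.0673 and 0.131). LIPA, the lysosomal acid lipase, differed by 0.32 at 5 µM vs. 0 µM and was not called in any comparison. Its annotated span, chr10:90973326-91174314 (GRCh37, minus strand), runs over IFIT2, IFIT3, IFIT1B and IFIT1 on the opposite strand. CH25H, cholesterol 25-hydroxylase, was listed at 0 in all libraries.

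Beside the IFITM cluster 0 of 6 genes were called in each of the 3 comparisons with all libraries. Without control replicate 3, B4GALNT4 was called up at 5 µM vs. 0 µM (limma adjusted p = 0.00913) and at 10 µM vs. 0 µM (0.0490), and ATHL1 at 10 µM vs. 0 µM (1.36, 0.0477). Without 10 µM replicate 2, ATHL1 was called up at 10 µM vs. 0 µM (1.24, 0.0336) and at 10 µM vs. 5 µM (1.04, 0.0247). At 5 µM vs. 0 µM, PKP3, a desmosomal plakophilin, differed by -0.63 (limma adjusted p = 0.00163) and SIGIRR, a receptor that dampens interleukin signals, by -0.43 (adjusted p = 0.00645), both within the fold limit. ATHL1 (0.19), IFITM5 (0.38), NLRP6 (-0.19) and B4GALNT4 did not pass the limit on p there, B4GALNT4 with a mean of 891 FPKM against 147. IFITM5, another family member at chr11:298200-299526 (GRCh37, minus strand), had a mean of 40400 FPKM in control cells, 52900 at 5 µM and 37400 at 10 µM. ATHL1 differed by 1.07 at 10 µM vs. 0 µM (adjusted p = 0.0603), and was called up after median-of-ratios scaling (1.31, adjusted p = 0.0386).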
